A study of Mus musculus with 19 samples.

Results

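The genes described here are 10 protein-coding genes on mouse chromosome 6 around the locus of *Spehd*, a long noncoding RNA of hematopoietic stem and progenitor cells. They are *Gata2* and 9 neighbours, *Rab43*, *Isy1*, *Cnbp*, *Copg1*, *Rab7*, *Rpn1*, *Eefsec*, *Ruvbl1* and *Sec61a1*, out of 54352 genes counted. All 10 were chosen by position and by name, and all 10 passed the filter on low counts in every comparison. The comparison asked whether the level of *Gata2*, whose start the predicted *Spehd* locus reaches, differed when *Spehd* was knocked down, and whether its neighbours differed with it.

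Mice were reconstituted for 10 weeks with hematopoietic stem cells that carried a doxycycline-inducible shRNA, and were fed doxycycline for 6 days before sorting. The study's methods give C57BL6J donors and, for transplants with the inducible vector, C57BL/6-CD45.1; cKit-w41 recipients of 9 to 12 weeks, and the labels give the strain as C57BL6. A zsGreen reporter marked the cells that expressed the shRNA, and every group, controls included, carried the vector, the transplant and the doxycycline. Common myeloid progenitors (CMP) gave 3 libraries with sh10 and 2 with sh20, both against *Spehd*, and 4 with a control shRNA against *Renilla* luciferase; LSK cells, the compartment that holds the stem cells and that the labels call KLS, gave 3, 3 and 4. No source used here says whether libraries of a group came from separate animals, so p-values measure the spread between these libraries, which may be partly technical. No counted gene carries the name *Spehd*, so the knockdown itself was not measured in these libraries, and in these bulk samples fewer cells of a type and less RNA per cell cannot be told apart.

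*Gata2* encodes a zinc-finger transcription factor that stem and progenitor cells need to survive and self-renew, and that later gives way to *Gata1* as erythroid and megakaryocytic cells mature. The chromosomal segment between *Rpn1* and *Gata2* is known for the distal enhancer that a leukemia-associated inversion in human cells moves from *Gata2* to another oncogene. The neighbours are housekeeping genes of the secretory pathway (*Rpn1*, *Sec61a1*, *Copg1*), of small GTPase trafficking (*Rab7*, *Rab43*), of chromatin and splicing (*Ruvbl1*, *Isy1*), of selenoprotein synthesis (*Eefsec*) and of nucleic acid binding (*Cnbp*).

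The predicted *Spehd* locus, the span of all its possible isoforms, is chr6:88163177-88197890 of mm10. The study also placed the ends of the transcript by RACE, around a stretch of high coverage that the predicted locus extends beyond on the side of *Gata2*; those ends were not used here, so distances and overlaps below are those of the prediction. By GENCODE vM21, an annotation on that build, *Gata2* (ENSMUSG00000015053.14, plus strand) runs from 88193891 to 88207032. The longest *Gata2* transcript starts 3999 bases inside the predicted locus, and the other coding transcripts start 444 bases beyond its end. *Rpn1* (88084482 to 88105304, plus strand) ends 57.9 kb before the locus, and *Eefsec* (88257334 to 88446539, minus strand) ends 59.4 kb after it. *Rab7* lies 118 kb away, and the remaining members lie 249.6 kb (*Copg1*) to 351 kb (*Rab43*) from it. Gm38708, a lincRNA that is the only other annotated gene to overlap the locus, had 0 to 22 counts per library.

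The guide strands of the 3 hairpins are shown because their seeds, bases 2 to 8 in capitals, are where a direct effect of an shRNA on a member's own transcript would be looked for.
sh10: tACAAAGTcagcttttcctctc
sh20: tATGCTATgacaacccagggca
Renilla: tAGATAAGcattataattccta
The full 22-base target of each hairpin was found in 0 of 141767 annotated transcripts. The complement of the sh10 seed occurred in transcripts of *Copg1* and *Isy1*, of the sh20 seed in none of the members, and of the *Renilla* seed in transcripts of *Isy1*, *Rab43*, *Rab7* and *Rpn1*. Of all annotated genes, 19.3%, 9.75% and 11.1% held the 3 matches. Such a match of 7 bases is a description of the sequence, not a site of repression.

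The upstream promoter of *Gata2*, 250 bases before to 50 bases after the start of its longest transcript (chr6:88193641-88193940, plus strand, RefSeq on GRCm38.p6), is shown because the whole window lies inside the predicted locus, which does not place it within the transcript that RACE defined.
Gata2 promoter: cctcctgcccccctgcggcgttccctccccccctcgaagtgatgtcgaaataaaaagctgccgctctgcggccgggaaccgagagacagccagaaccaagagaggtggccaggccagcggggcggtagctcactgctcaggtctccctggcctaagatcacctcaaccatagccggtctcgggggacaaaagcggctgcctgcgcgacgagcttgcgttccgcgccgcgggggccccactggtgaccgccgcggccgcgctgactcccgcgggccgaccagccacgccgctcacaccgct
Its GC content was 69.3%. The letters of a GATA motif (AGATAA, its form AGATAG, the form TGATAA and the form TGATAG, searched on both strands) were not in this window nor in that of the downstream *Gata2* promoter. They were in 3 of the 14 promoters that RefSeq lists for 9 of the members (21.4%), at 1 promoter each of *Rab43*, *Rab7* and *Ruvbl1*, and in 29.8% of all 32851 promoters in the table. No sequence was listed for *Sec61a1*.

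Library totals ran from 3647318 to 5965155 counts on genes. They did not overlap between the CMP groups, with 4918631 to 5965155 for *Spehd* shRNAs and 3857980 to 4314959 for *Renilla*. *Ly6a*, which encodes the Sca-1 antigen that defines LSK cells, had 1.58 to 9.83 CPM in CMPs and 39.9 to 81.7 CPM in LSK cells, and *Gata1*, the erythroid GATA factor, had 253 to 312 CPM in CMPs and 58.9 to 125 in LSK cells. CPM are counts scaled to a common library size after TMM normalization over all 19 libraries. The 2 sh20 libraries of CMPs stood apart from the *Renilla* CMPs, with 17174 and 18066 genes detected beside 18552 to 20173 although their totals were the highest of the CMPs. They also had 47.6% and 47.9% of alignments flagged as not unique, beside 43.7% to 45.6%. They also differed from each other by a chi-square of 27.8 per degree of freedom, where other CMP pairs of a group had 4.31 to 8.07. Among LSK cells sh10 library B stood apart, with 37.7 and 45.2 against the other sh10 libraries. The 3 sh20 libraries of LSK cells stood apart as well, with 17587 to 17817 genes detected beside 19026 to 20032 with *Renilla*, and with 13.9 to 18.3 between each other where the remaining LSK pairs had 5.24 to 6.87.

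Cell type markers moved between the CMP groups as well, and 0 markers of any list were at 0 counts over a whole group. Erythroid and megakaryocyte markers (10 genes) summed to 1904 to 2359 CPM with *Renilla*, 1640 to 1718 with sh10 and 1935 to 1961 with sh20. LSK and stem cell markers (9 genes) summed to 886 to 1031, 667 to 854 and 880.5 to 925 CPM in the same order, granulocyte and monocyte progenitor markers (8 genes) to 478 to 671, 693 to 866 and 598 to 624.9, and mast cell and basophil markers (8 genes) to 129 to 187, 175 to 219 and 130 to 172. Of the 10 erythroid and megakaryocyte markers, 6 had a negative log2 fold change with sh20 and 10 with sh10. With sh20, *Car1* (-0.49, adjusted p = 0.0093, edgeR) and *Klf1* (-0.39, adjusted p = 0.0383, edgeR) were called lower, where 4.27% of all genes were. With sh10, *Gp9* was called lower, where 1.97% of all genes were called in either direction. Markers of the common progenitor gate (3 genes) summed to 1301 to 1416 CPM with *Renilla*, 1264 to 1391 with sh10 and 1057 to 1073 with sh20, which did not overlap with *Renilla*. Of these, *Cd34*, an antigen of the CMP gate, had 299 to 408 CPM with *Renilla*, 292 to 376 with sh10 and 187 in both sh20 libraries, and fell with sh20 (log2 fold change -0.85, adjusted p = 0.0097, edgeR). The part of these markers and library features in the results for *Gata2* and its neighbours was not tested.

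Per kilobase of exon, *Cnbp* had the highest level of the 10 in *Renilla* CMPs, with 123 ± 5.6 CPM per kb (SD, n = 4). *Gata2* followed with 101 ± 4.12 and *Rpn1* with 97.7 ± 5.03 CPM per kb, and the ranges of these last 2 overlapped. *Eefsec* (65.5 ± 5.03) and *Rab7* (64.4 ± 0.812) overlapped as well, and then came *Sec61a1*, *Ruvbl1*, *Copg1* and *Isy1* with no overlap between neighbours. *Rab43* was lowest, with 2.60 ± 0.312 CPM per kb. In *Renilla* LSK cells the order was the same apart from *Rab7* and *Eefsec*, which changed places, and the ranges of *Gata2* and *Rpn1*, of *Rab7* and *Eefsec*, and of *Ruvbl1* and *Copg1* overlapped there.

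The levels of the 10 genes in all libraries are plotted by group.

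**Figure D1:**
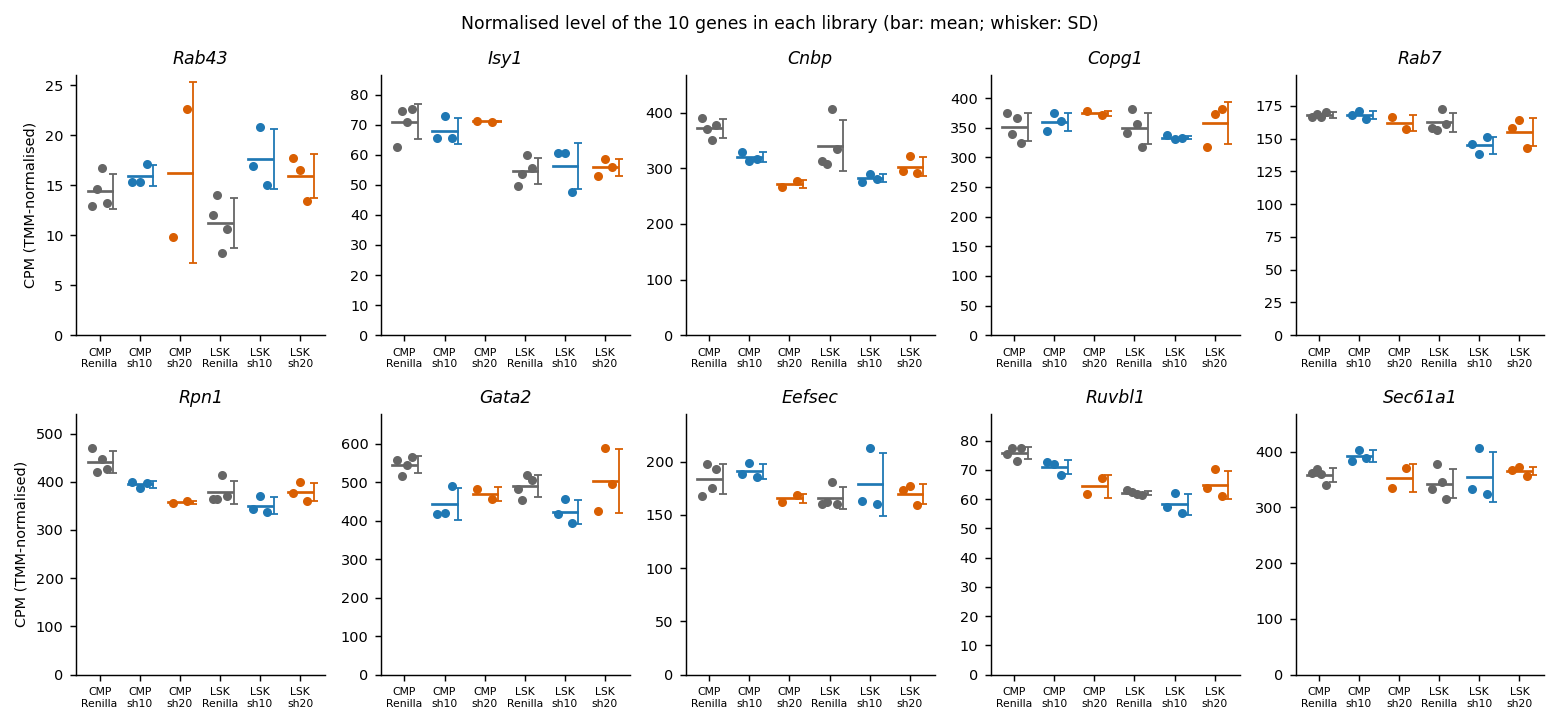
Each panel gives TMM-normalised CPM on a linear axis from 0 for 1 gene, in chromosome order; points are libraries, bars group means and whiskers SD, with *Renilla* in grey, sh10 in blue and sh20 in orange. *Cnbp*, *Rpn1*, *Gata2* and *Ruvbl1* in CMPs are the panels in which every *Spehd* shRNA library sits below every *Renilla* library.

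*Gata2* was lower in each CMP library with a *Spehd* shRNA than in each with the control, but the difference did not pass the threshold of 0.05 on adjusted p. The *Renilla* CMP libraries A to D had 557, 515, 545 and 566 CPM. Those with sh10 had 417, 421 and 492 CPM, and those with sh20 had 482 and 456. The 2 sets did not overlap, with the nearest values at 492 and 515.

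The quasi-likelihood test of edgeR, with Benjamini-Hochberg adjusted p over every gene tested, gave *Gata2* a log2 fold change of -0.26 with both hairpins as 1 group (standard error 0.06, 95% interval -0.41 to -0.12, adjusted p = 0.0895). With sh10 alone it was -0.30 (standard error 0.07, adjusted p = 0.0501) and with sh20 alone -0.21 (standard error 0.07, adjusted p = 0.127). Both hairpins were compared with the same 4 *Renilla* libraries. The hairpins differed from each other by 0.10, with an interval of -0.07 to 0.27. In the combined comparison 16.7% of all genes tested had a lower log2 fold change than *Gata2*.

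Of the 10 genes, 0 passed the threshold with both hairpins together in CMPs, where 0.116% of 12912 genes did, and 3 members had an unadjusted p under 0.05, as did 16.6% of all genes. DESeq2 called 3 members, *Gata2*, *Rpn1* and *Cnbp*, all lower, with adjusted p of 0.0153, 0.0241 and 0.0063. It called 882 genes in all where edgeR called 15. The log2 fold changes of the 10 ran from -0.31 to 0.16 with a median of -0.03, beside 0.02 over all genes, and 7 of 10 were negative, as were 47.1% of all genes. *Gata2*, *Rpn1*, *Cnbp* and *Ruvbl1*, 4 of the 10, had all *Spehd* libraries below all *Renilla* libraries, a pattern that 6.37% of the genes tested showed. Taken singly, each hairpin gave the same count of 4 (13.0% of genes with sh10, 17.6% with sh20), and *Sec61a1* had all sh10 libraries above *Renilla* (12.3%). With sh10, 0 members passed and 1.97% of genes did, but *Gata2* (adjusted p = 0.0501) lay at the threshold.

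*Rpn1*, the neighbour next to *Gata2* on its upstream side, encodes ribophorin I, a subunit of the oligosaccharyltransferase that glycosylates proteins in the endoplasmic reticulum. It had 470, 420, 447 and 427 CPM in *Renilla* CMPs, 399, 387 and 398 with sh10, and 355 and 360 with sh20. These 3 groups did not overlap. *Rpn1* fell with sh20, by 0.29 on the log2 scale (adjusted p = 0.0263, edgeR), while with sh10 the value was -0.16 (adjusted p = 0.121). In the sh20 comparison 4.27% of all genes were called lower. *Cd34* and the number of genes detected, given above, were lower in the same 2 libraries. The call for *Rpn1* was lost when sh10 library A or B, sh20 library B or *Renilla* library D was left out of the CMP fit. It was also lost without a filter on low counts (-0.28, adjusted p = 0.0669), with replicate letters as a block (-0.28, adjusted p = 0.114), with the log2 total as a further term for the 19 libraries (-0.06, adjusted p = 0.867, where the 19 libraries together gave -0.30 and 0.0289 without it) and with a per-library offset for counts per base of exon (-0.11, adjusted p = 0.304), and was kept in the other 5 settings.

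*Cnbp*, which encodes a zinc-knuckle protein that binds single-stranded nucleic acids, lies 312 kb before the locus and gave the largest difference of the 10 with sh20 in CMPs. *Renilla* CMPs had 391, 371, 350 and 378 CPM. Those with sh10 had 330, 314 and 317, and those with sh20 had 266 and 278, again with no overlap between any of the 3 groups. *Cnbp* fell with sh20 (log2 fold change -0.44, standard error 0.06, adjusted p = 0.0093, edgeR). The call was kept with each library left out in turn, and was lost with replicate letters as a block (-0.40, adjusted p = 0.0905), with the log2 total as a further term for the 19 libraries (-0.07, adjusted p = 0.846, where the 19 libraries together gave -0.45 and 0.0178 without it) and with the offset for counts per base of exon (-0.21, adjusted p = 0.055). With sh10 it had -0.22 (adjusted p = 0.0613), and with both hairpins -0.31 (adjusted p = 0.0786). The difference of sh20 from sh10 was -0.22 with an adjusted p of 0.0664, where 6.41% of all genes were called in either direction.

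The other 6 members and *Ruvbl1* did not pass in CMPs with sh10, with sh20 or with both. *Ruvbl1*, an ATPase of chromatin remodelling complexes, had 73.1 to 77.6 CPM with *Renilla*, 68.3 to 72.8 with sh10 and 61.7 to 67.1 with sh20, and its log2 fold change was -0.15 with both hairpins (95% interval -0.35 to 0.05) and -0.22 with sh20, where *Gata2* had -0.21. *Rab7*, the GTPase of late endosomes, had 166 to 171 CPM with *Renilla* and 157 to 171 with the *Spehd* hairpins, and an interval of -0.14 to 0.10. *Sec61a1*, the pore of the protein translocon, had 340 to 370 CPM with *Renilla* and 383 to 404 with sh10, a log2 fold change of 0.13 (adjusted p = 0.204, edgeR), and 335 and 371 with sh20.

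*Copg1*, a subunit of the COPI coat, had an interval of -0.07 to 0.19 with both hairpins. For *Eefsec*, the neighbour on the downstream side of *Gata2*, which encodes the elongation factor that delivers selenocysteine, the log2 fold change was -0.02 and the interval -0.19 to 0.15, and for *Isy1*, a splicing factor, -0.25 to 0.19. *Rab43*, with 30 to 129 counts per library, was the least precise, with -0.42 to 0.74. Of these 4, *Copg1* and *Isy1* carry the sh10 seed match and had 0.03 and -0.06 with sh10.

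**Figure D2:**
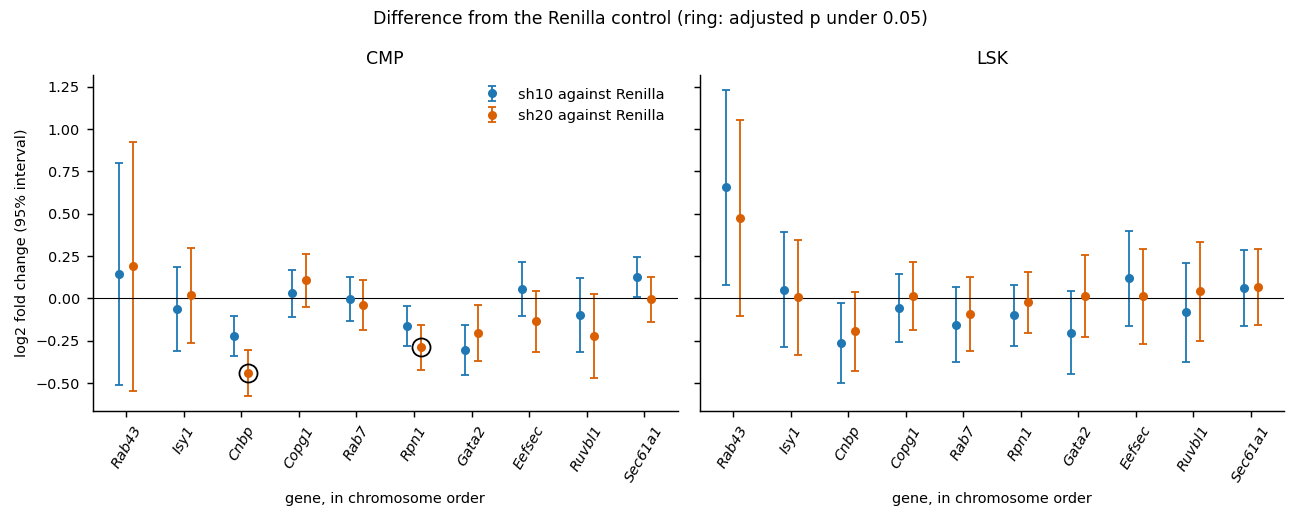
The vertical axis is the log2 fold change from the *Renilla* control with its 95% interval for each gene, in chromosome order, in CMPs (left) and LSK cells (right); sh10 is blue, sh20 orange, and a ring marks adjusted p under 0.05. The 2 rings are *Cnbp* and *Rpn1* with sh20 in CMPs.

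Library depth moved with these results, and the counts of several of the 10 genes did not rise in proportion to it. The counts were made after duplicate alignments had been removed, so a count is a number of distinct alignments to a gene. *Cnbp* had 1484 to 1583 counts in the 19 libraries, an SD of 33.5 counts where the square root of its mean is 39.2, although the library totals spanned 3647318 to 5965155. The slope of its log2 count on the log2 total was 0.11 over the 19 libraries, and 0.11 ± 0.06 (standard error) within the 6 groups. A count in proportion to the total has a slope of 1, which was close to the median of 1.0 over the 10433 genes that had a mean count of 50 or more and an exonic length in the annotation.

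*Gata2* had a slope of 0.41 and *Rpn1* of 0.44 over the 19 libraries, and 0.33 ± 0.27 and 0.38 ± 0.11 within groups. *Copg1* had 1.05 over the 19 libraries and 0.90 ± 0.23 within groups, and *Sec61a1* 0.98 and 0.64 ± 0.26, where the ranges of 1 standard error of *Sec61a1* and *Gata2* overlap. Slopes over the 19 libraries include the differences between groups. Within groups *Eefsec* had 0.30 ± 0.27, below *Gata2* and *Rpn1*, although its level in CMPs differed little between hairpins and control, and over the 19 libraries it had 0.75. *Cnbp*, *Gata2* and *Rpn1* had the most counts per base of exon of the 10: 0.505 for *Cnbp*, 0.430 for *Gata2* and 0.412 for *Rpn1*, each above more than 96.6% of genes. They were the same 3 members that had an unadjusted p under 0.05 in CMPs with both hairpins.

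**Figure D3:**
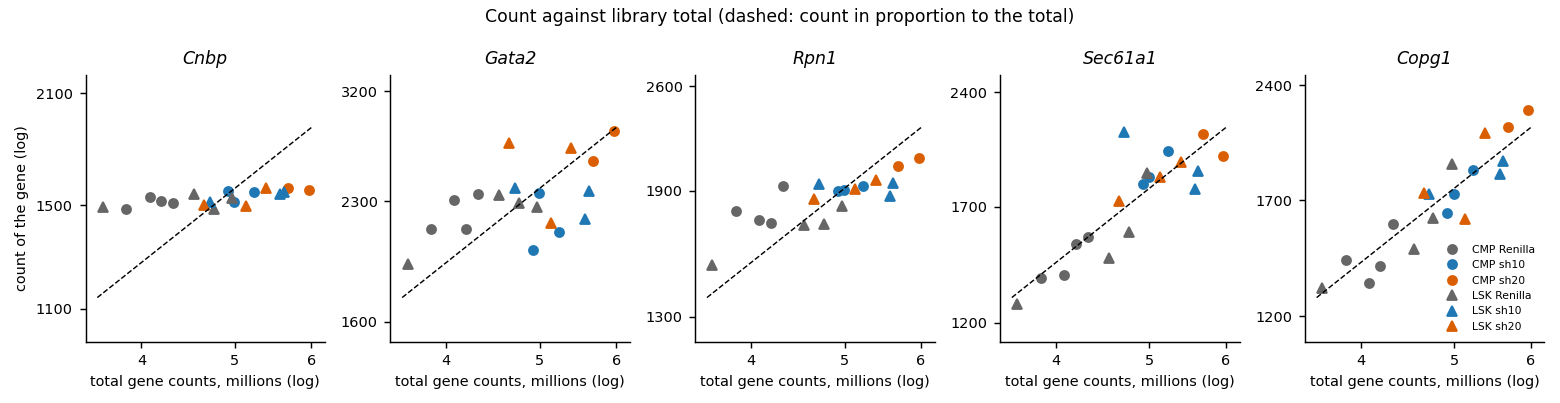
Counts of 5 of the genes (vertical, log axis) against the library's total count on genes (horizontal, log axis) for the 19 libraries, CMP as circles and LSK as triangles, with *Renilla* grey, sh10 blue and sh20 orange. The dashed line is a count in proportion to the total: over the 19 libraries *Copg1* and *Sec61a1* run along it, and *Cnbp* stays between 1484 and 1583.

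Values across all genes were ordered the same way. In the decile of genes with the most counts per exonic base, which holds *Cnbp*, *Gata2*, *Rpn1*, *Rab7* and *Eefsec*, the median slope was 0.63 and the median log2 fold change with both hairpins in CMPs was -0.15, with 79.8% of genes negative. In the decile with the fewest counts per base the median was 0.15. In LSK cells the totals with *Spehd* hairpins and with *Renilla* overlapped, with medians of 5258356.5 and 4647202. There the decile with the most counts per base had a median log2 fold change of -0.02 and the decile with the fewest -0.08.

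**Figure D4:**
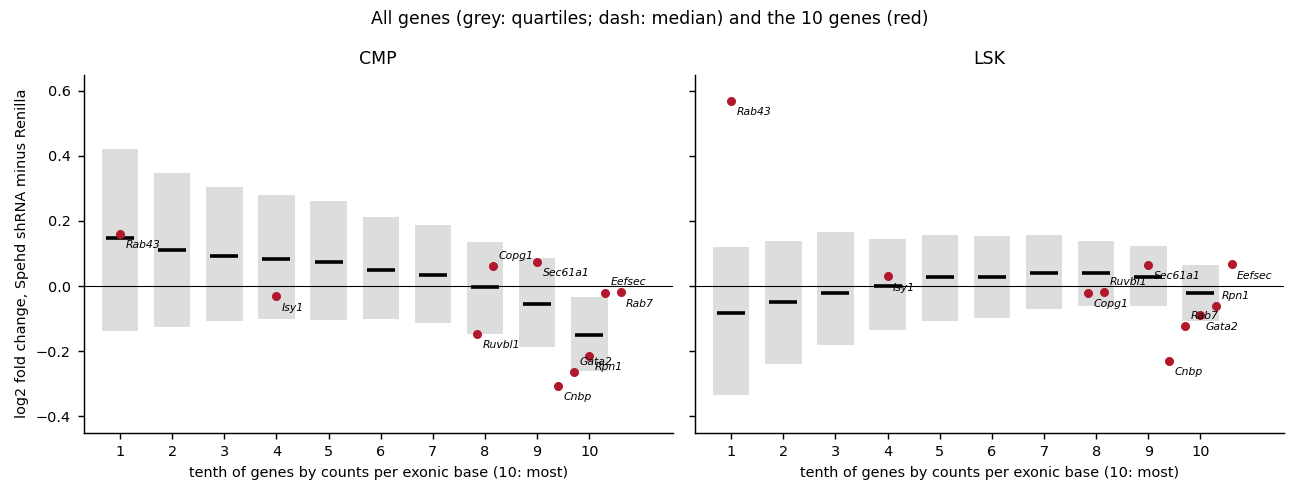
Log2 fold change of *Spehd* hairpins against *Renilla* in CMPs (left) and LSK cells (right) for deciles of genes ordered by counts per exonic base; grey boxes span the quartiles, dashes are medians and red points the 10 genes. In CMPs the medians descend from 0.15 to -0.15 and *Gata2*, *Rpn1* and *Cnbp* lie in the last decile, *Rpn1* inside its quartiles and *Gata2* and *Cnbp* below them, while *Rab7* and *Eefsec*, in the same decile at -0.02 each, lie above its upper quartile of -0.03.

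With the log2 total as a further term in the model of the 19 libraries, the combined difference in CMPs was -0.04 for *Gata2* (adjusted p = 0.990, edgeR), -0.04 for *Rpn1* and -0.03 for *Cnbp*. With a per-library offset fitted to the number of counts per base of exon, an alternative chosen after the counts of *Cnbp* were seen, they were -0.11 (adjusted p = 0.520), -0.07 and -0.13. Under that offset 0 of the 10 genes passed the threshold with either hairpin. *Gata2* had -0.18 with sh10 and -0.01 with sh20 there. Depth and hairpin cannot be told apart in CMPs, since every *Spehd* library was deeper than every *Renilla* library.

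*Rpn1* is not a fixed reference, since with sh20 in CMPs its log2 fold change was -0.29 where *Gata2* had -0.21. To set *Gata2* against this neighbour within a library, the log2 ratio of *Gata2* to *Rpn1* was taken, both genes having low slopes. It was 0.31 ± 0.07 (SD, n = 4) in *Renilla* CMPs and 0.25 ± 0.16 (SD, n = 5) with *Spehd* hairpins. The difference of -0.05 was not larger than the spread between libraries (p = 0.524 by a two-sided exact permutation test, in which no p below 0.0079 can arise). The sh10 libraries had 0.06, 0.12 and 0.30, and the sh20 libraries 0.44 and 0.34, on both sides of the 0.24 to 0.41 of *Renilla*. The hairpins differed from *Renilla* in opposite directions, sh10 by -0.15 (two-sided exact permutation p = 0.2) and sh20 by 0.08 (two-sided exact permutation p = 0.267, in which no p below 0.0667 can arise), so that the pooled difference averages both. In LSK cells the difference was -0.04 with both hairpins (two-sided exact permutation p = 0.638). There sh10 differed from *Renilla* by -0.10 (two-sided exact permutation p = 0.0857, in which no p below 0.0286 can arise) and sh20 by 0.02 (two-sided exact permutation p = 0.829).

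Against the mean of the other 9 members the difference was larger. The log2 ratio of *Gata2* to that mean was 1.87, 1.72, 1.81 and 1.88 in *Renilla* CMPs, 1.46, 1.44 and 1.69 with sh10, and 1.84 and 1.59 with sh20. The sh10 libraries were all below *Renilla*, and the sh20 libraries lay on both sides of its lowest value. The difference of the means was -0.21 with both hairpins, -0.29 with sh10 and -0.10 with sh20, and in LSK cells -0.13 with both, -0.23 with sh10 and -0.03 with sh20. There the sh10 libraries, at 1.60 to 1.63, were also all below the 1.70 to 1.94 of *Renilla*, and the sh20 libraries ran from 1.59 to 1.98. The ratio to *Rpn1* alone and the ratio to all 9 neighbours thus gave different sizes. The 9 include genes whose counts followed depth more closely than those of *Gata2*, and the part of depth in this ratio was not tested.

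In LSK cells neither *Gata2* nor any neighbour passed the threshold with either hairpin. With both hairpins together edgeR called 0 of 13441 genes (0.0%), with 492 (3.66%) at an unadjusted p under 0.05, and DESeq2 also called 0. For single hairpins edgeR called 0 genes, while DESeq2 called 3 with sh10 (all lower) and, with sh20, 148 lower and 47 higher, none of them among the 10. *Renilla* LSK cells had 483, 453, 519 and 506 CPM of *Gata2*, sh10 had 418, 457 and 393, and sh20 had 424, 589.6 and 495. The groups overlapped, and library B with sh20 was above all others. Markers moved between the LSK groups too: those of LSK and stem cells summed to 1700 to 1916 CPM with *Renilla* and 1341 to 1687 with sh10, without overlap, and to 1664 to 1813 with sh20. Common progenitor gate markers summed to 1584 to 1894, 957 to 1602 and 1467 to 1510 in the same order, and mature neutrophil markers (7 genes) to 5.07 to 309.7, 69.6 to 293 and 4.78 to 7.53. Their part in the LSK values was not tested. With both hairpins the log2 fold change of *Gata2* was -0.09 (95% interval -0.32 to 0.14), an interval that includes the -0.26 seen in CMPs. Leaving out 1 library gave -0.17 to -0.05. With sh10 alone the value was -0.20 and with sh20 alone 0.01.

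*Cnbp* and *Rab43* were the 2 members that had an unadjusted p under 0.05 in LSK cells with both hairpins. *Cnbp* had 308 to 408 CPM with *Renilla* and 275 to 323 with the *Spehd* hairpins (log2 fold change -0.23, adjusted p = 0.998, edgeR), and its highest value was in *Renilla* library C, the library with the lowest total. *Rab43*, a GTPase of Golgi transport, had 8.18 to 14.1 CPM with *Renilla* and 13.4 to 20.9 with the hairpins (log2 fold change 0.57, adjusted p = 0.998). Gm45140, on the same strand, shares 75.4% of the exonic bases of *Rab43* in the annotation, and reads that fall on both genes can be left out of either count.

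The test of whether the knockdown difference in CMPs differed from that in LSK cells called 0 of the 10 genes and 0.0531% of all genes. For *Gata2* the difference of differences was -0.17 (95% interval -0.42 to 0.07, adjusted p = 0.597, edgeR) and for *Rpn1* -0.18 (-0.34 to -0.01, adjusted p = 0.473). A smaller difference in LSK cells was therefore not shown.

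Between the control populations, the level of *Gata2* did not pass the threshold, while 3 neighbours were higher in CMPs. *Gata2* had 546 ± 22.2 CPM (SD, n = 4) in *Renilla* CMPs and 490 ± 28.7 (SD, n = 4) in *Renilla* LSK cells, with ranges that overlapped (log2 difference 0.16, 95% interval -0.03 to 0.34, adjusted p = 0.227, edgeR). *Rpn1* (0.22, adjusted p = 0.014), *Ruvbl1* (0.29, adjusted p = 0.0398) and *Isy1* (0.38, adjusted p = 0.029) passed, all higher in CMPs. Of all genes, 11.0% were called higher in CMPs, and 16.4% had no overlap and were higher, as these 3 were. When libraries were left out in turn, *Rpn1* lost its call without *Renilla* library A of CMPs, *Isy1* lost its call without any one of 6 *Renilla* libraries (B, C or D of CMPs, A, B or D of LSK cells), and *Ruvbl1* lost its call without any one of 14 of the 19 libraries. With upper quartile normalization all 3 calls were lost (adjusted p of *Rpn1* 0.116, edgeR), as they were without a filter and with a minimum of 10 counts per library. Over 8 alternative settings, these included, *Rpn1* and *Isy1* kept their calls in 4 each and *Ruvbl1* in 1. All 10 values were positive, from 0.01 to 0.38, with a median of 0.15 beside -0.02 over all genes. That direction was not kept with the offset for counts per base of exon, under which 6 of the 10 were negative, from -0.10 for *Rab7* to -0.0049 for *Eefsec*, *Gata2* among them.

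Markers of several cell types differed between these control populations. In CMPs all 10 erythroid and megakaryocyte markers were called higher (1904 to 2359 CPM in sum, beside 722 to 1001 in LSK cells). Called lower in CMPs were 7 of 9 LSK and stem cell markers, 7 of 8 granulocyte and monocyte progenitor markers (478 to 671 beside 992 to 1277 CPM), 7 of 8 mast cell and basophil markers (129 to 187 beside 388 to 837) and 6 of 7 mature neutrophil markers (1.22 to 10.8 beside 5.07 to 309.7), where 8.73% of all genes were called lower. Of the 3 common progenitor gate markers *Cd34* was called lower (log2 difference -0.55, adjusted p = 0.000638, edgeR). Their part in the differences of the 10 genes was not tested.

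*Isy1* had 62.7, 74.6, 71.0 and 75.3 CPM in *Renilla* CMPs and 49.4 to 60.01 in *Renilla* LSK cells, with no overlap. With the offset by counts per base *Isy1* kept its call (0.46, adjusted p = 0.0231, edgeR), while *Rpn1* had 0.06 and *Gata2* -0.01. The median total was 4135171 in *Renilla* CMPs and 4647202 in *Renilla* LSK cells. With sh10 the log2 difference of CMPs from LSK cells was 0.07 for *Gata2* and 0.17 for *Rpn1*, and with sh20 it was -0.10 and -0.08. None of the 10 passed in these 2 comparisons, where 16.1% and 14.6% of all genes did. Without sh10 library B of LSK cells 4 members passed with sh10, *Rpn1*, *Eefsec*, *Ruvbl1* and *Sec61a1*. The share of all genes called in that fit is not given here, so the count of 4 has no background to be read against.

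Beyond the 10 genes, 65 other genes of the count files lie within 1 Mb of the predicted locus, of which 24 passed the filter in the fits per hairpin in CMPs. With sh10, 2 were called, both lower, where 1.97% of all genes were called. *Gp9*, which encodes a platelet glycoprotein, starts at -416 kb from the start of *Gata2* and fell by 1.22 on the log2 scale (adjusted p = 0.0376, edgeR, standard error 0.23). *Efcc1*, at -463 kb, had -0.99 (standard error 0.21, adjusted p = 0.0495). With sh20, 0 of the 24 were called, and *Gp9* differed between the hairpins by 1.73 (adjusted p = 0.0129). *Gp9* belongs to the erythroid and megakaryocyte marker list given above. *H1fx* and *Hmces*, at 182 and 227 kb from the predicted locus, lie nearer to it than *Copg1* does but are not among the 10. In CMPs *H1fx* had -0.34 with sh10 and -0.68 with sh20 (adjusted p = 0.336 and 0.0955, edgeR), and *Hmces* had -0.09 and 0.34. In LSK cells *H1fx* had -0.31 and -0.48, and *Hmces* 0.13 and 0.01. Neither was called with either hairpin.

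**Figure D5:**
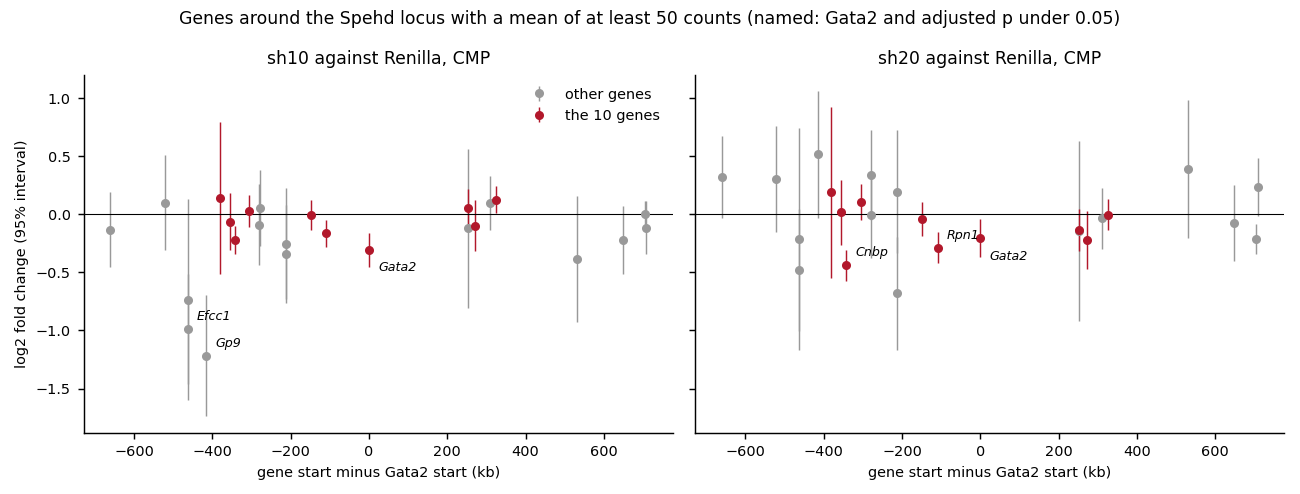
Log2 fold change with its 95% interval against the distance in kb of each gene's start from that of *Gata2*, for the 10 genes (red) and 15 other genes whose mean count was 50 or more (grey), for sh10 (left) and sh20 (right) in CMPs. Labels mark *Gata2* and the genes called: *Gp9* and *Efcc1* with sh10, *Cnbp* and *Rpn1* with sh20.

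Between *Renilla* CMPs and LSK cells 11 of 28 of these genes were called, 7 higher and 4 lower in CMPs, where 19.8% of all genes were called. *Mgll*, a monoglyceride lipase at 531 kb, was higher by 2.91 (adjusted p = 2.03e-05, edgeR), *Aplf* by 0.98 and *Gp9* by 0.89. *Efcc1* had -1.02, and Gm44210, an antisense transcript at its start, -1.50.

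Antisense transcripts overlap 4 members with more than a few counts, and the library kit is not stated to keep the strand. Gm44170, which shares 8.16% of the exonic bases of *Sec61a1*, had 268 to 449 counts, Gm5577 on *Rab7* 101 to 260, Gm26636 on *Copg1* 114 to 190 and Gm44264 on *Eefsec* 43 to 117. None of the 4 passed the threshold with the *Spehd* hairpins in CMPs, with log2 fold changes of -0.13 to 0.04 in the combined comparison. *Gata2* has no annotated antisense partner that shares its exons.

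Calls in lists of related genes are to be read against the share of all genes called in CMPs, which was 0.116% with both hairpins, 1.97% with sh10 and 6.17% with sh20. Of 16 genes listed for its complexes and known targets, 0 passed with both hairpins in CMPs, and their median was -0.08 beside 0.02 over all genes. With sh10, *Lmo2*, the bridging protein of GATA complexes, fell (log2 fold change -0.24, adjusted p = 0.038) and *Hdc*, the histidine decarboxylase of basophils and mast cells, rose (2.05, adjusted p = 0.033, edgeR). With sh20, *Lmo2* (-0.35) and *Lyl1* (-1.18) fell.

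Lists of genes that work with the neighbours gave these counts. With both hairpins in CMPs, 0 of 11 oligosaccharyltransferase genes, 0 of 9 translocon genes, 0 of 8 COPI genes, 0 of 10 genes of RUVBL complexes, 0 of 9 selenoprotein genes, 0 of 8 genes of the splicing complex of *Isy1* and 0 of 11 genes of the *Rab7* tethering machinery passed. The medians were -0.22, -0.16, 0.14, -0.07, 0.07, 0.03 and 0.07 in that order, beside 0.02 over all genes, and counts of 0 are near the share of 0.116%. With sh20, *Ddost* (-0.31) of the oligosaccharyltransferase and *Ssr2* (-0.33) of the translocon fell, as did *Kat5* (-0.75) and *Gpx1* (-0.50), and with sh10 *Syf2* (-0.34) of the splicing list fell. In the tethering list, *Vps11* (-0.43) fell and *Rilp* (3.104) rose with sh20.

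The genes whose levels followed *Gata2* most closely over the 19 libraries, of 10483 others with a mean count of 50 or more, whether or not they had an exonic length, were *Vamp8* (Pearson's r = 0.86), *Cmas*, *Cited2*, *Arf4* and *Cd9* (r = 0.80). Libraries share their depth and groups in this measure. *Rpn1* ranked 64 (r = 0.68) and *Cnbp* 157 (r = 0.64), *Ruvbl1* 498, and *Sec61a1* (r = -0.09) and *Rab43* (r = -0.30) were negative. *Vamp8*, an endosomal SNARE, had 184 ± 6.81 CPM (SD, n = 4) in *Renilla* CMPs, 143 ± 4.89 with sh10 (n = 3) and 146 ± 14.0 with sh20 (n = 2). These genes were chosen for their likeness to *Gata2* over the same libraries, so their levels are a description.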

How the data were processed

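RNA from sorted CMP and LSK cells was sequenced in 19 libraries. Per the study's methods, the authors used STAR 2.5.2a for alignment to mm10, Picard 1.131 to remove duplicate alignments, and HTSeq 0.7.2 to count genes of GENCODE vM11; the values used, as deposited by the authors, are whole read counts per gene without normalization. A deposited table of normalized counts was not used. After duplicates are removed, a gene whose alignment positions are nearly all taken gains few counts from more reads. Lines that name no gene were left out; reads on no feature made up 51.9% to 53.8% of uniquely mapped reads. Annotation here was GENCODE vM21, matched by symbol to 53775 of 54352 genes.

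Groups came from the labels. edgeR 4.0.16 (R 4.3.3) fitted quasi-likelihood models with TMM normalization and filterByExpr (minimum count 10, total 15), with Benjamini-Hochberg adjustment over all genes tested and a threshold of 0.05. Both hairpins were tested as 1 group within a cell type, each hairpin in a fit of 3 groups, and cell types in a fit of 6. Log2 CPM for ratios used a prior count of 2. Slopes are least-squares fits of log2 counts. Alternatives were DESeq2 1.42.0, other normalizations and filters, replicate letters as a block, log2 total counts as a covariate, leaving out each library and, chosen after the data were seen, the offset for counts per exonic base (lowess span 0.3) and each hairpin in the fit of 6 groups. Intervals are 95%. Code was tested on simulated counts.

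The 10 genes and the gene lists were chosen with earlier results of these data known. Other genes named are those within 1 Mb of the locus that passed the threshold and averaged 50 counts or more (up to 5 per comparison by size), up to 3 called members of each list, and the 5 genes most correlated with *Gata2*. *H1fx* and *Hmces* were named for their position, with their values known. Tools also included Python 3.11.15, numpy 2.4.6, pandas 2.3.3 and matplotlib 3.10.9.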

Additional observations from a re-analysis of the deposited data

Results flagged for a closer look

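Of 40 groups of 4 to 6 libraries tested, 3 held a library whose gap to the nearest other was large for the range of its group; chance flags about 1 in 20. In *Renilla* LSK cells library C stood above the others for *Rpn1*, with 414 CPM beside 364 to 370 (the gap took 0.870 of the range), and for *Eefsec*, with 181 CPM beside 160 to 163 (0.870). This library had the lowest total of the 19, 3647318 counts. In LSK cells with *Spehd* hairpins, sh10 library B stood apart for *Eefsec*, with 213 CPM beside 159 to 177 (0.635).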

How the results depend on the processing

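Of 2580 values recomputed for the 10 genes, 159 changed sign; none of these had passed the threshold in either fit. In 2 the reported unadjusted p was under 0.05, both with log2 total counts as a covariate: *Gata2* with sh20 in CMPs became 0.059 and *Cnbp* with sh10 in CMPs 0.0093.

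For *Gata2* with both hairpins in CMPs, adjusted p passed the threshold with upper quartile normalization (-0.32), with sh10 and sh20 as separate groups averaged (-0.26) and with DESeq2 (-0.25), and leaving out 1 library gave -0.30 to -0.24 without passing. With sh10 it passed with upper quartile normalization (-0.36), without a filter (-0.30), with a minimum of 10 counts per library (-0.32) and DESeq2 (-0.30), and leave-one-out gave -0.38 to -0.26, passing without *Renilla* library B or either sh20 library of CMPs. Where 1 sh20 library of CMPs was left out, the other was assumed to vary like the other groups.

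Members past the threshold with both hairpins in CMPs were 3 with upper quartile normalization, separate groups and DESeq2 and 2 with all 19 libraries in 1 fit. With sh10 they were 2 with upper quartile normalization, a minimum of 10 counts and DESeq2, 1 with no filter, and 0 to 2 with 1 library left out. With sh20 they were 1 with no filter, 0 with the covariate and 0 with the offset by counts per base, and 1 to 2 with 1 library left out: *Rpn1* lost its call without sh10 library A or B, sh20 library B or *Renilla* library D, and *Cnbp* kept its call each time. DESeq2 called 1 member, *Cnbp*, between the hairpins in CMPs. Between *Renilla* CMPs and LSK cells they were 0 with upper quartile normalization, no filter and a minimum of 10 counts, 1 with the covariate and 1 with the offset, and 1 to 3 with 1 library left out; without *Renilla* library A of CMPs *Rpn1* lost its call. With sh10 they were 0 to 4, and 1 with the covariate. With the mean of the other 9 members in place of *Rpn1*, the difference in the log2 ratio of *Gata2* in CMPs moved from -0.05 to -0.21. The cause was not tested.

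No source pairs libraries by replicate letter. Deviations correlated by -0.08 to 0.04 in the 16 pairs of the same letter within a cell type, and by -0.0007 to 0.21 in the 9 pairs of the same letter and shRNA across cell types, beside -0.17 to 0.09 in 22 pairs of other letters. With the letters as a replicate block, members past the threshold with sh20 in CMPs were 0, *Gata2* with both hairpins in CMPs had -0.25 (adjusted p = 0.438, edgeR), and calls over all genes went from 853 to 0 with sh20 and from 272 to 5 with sh10.

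Over all genes, calls with both hairpins in CMPs were 15, and 0 to 882 under the alternatives. With each hairpin tested in the fit of all 19 libraries, added after the data were seen, they went from 272 to 145 with sh10 in CMPs, and in LSK cells from 0 to 1 with sh10 and to 12 with sh20. Of the calls, 66.7% were lower, 86.6% with upper quartile normalization and 49.2% with DESeq2; with sh10 the shares were 50.4%, 74.9% and 48.0%, and with sh20 69.2%, 80.0% and 59.1%. Upper quartile normalization moved the median of all genes by over 0.1 for CMPs against LSK cells with sh10, from 0.007 to -0.11. With both hairpins in CMPs *Rab43* (30 to 129 counts) had a standard error of 0.26, where the log2 fold change of *Gata2* was -0.26. A difference of that size in *Rab43* would not stand out from its spread.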
